A study of Mus musculus with 4 samples.

Results

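The cytosolic ribosomal protein genes are those whose symbols begin with Rpl or Rps and go on with a number and at most 1 paralog suffix, together with Rplp0, Rplp1, Rplp2 and Rpsa; symbols marked as pseudogenes were left out. They were taken from probe sets with exactly 1 gene symbol in the platform annotation, which gave 67 genes of 22180 on 108 probe sets of 23521. For a gene with several probe sets, the brightest on average was used. Of the 67 genes, 32 encode large-subunit proteins, 23 small-subunit proteins and 3 the stalk proteins, and 9 are paralogs or copies of ribosomal protein genes by name. A further 57 probe sets carry a ribosomal symbol together with other symbols, 12 ribosomal symbols occur on these alone, and none of them was analysed here.

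The 4 arrays, of the GeneAtlas system, measured total RNA of E14tg2a mouse embryonic stem cells cultured with serum and LIF. Cells were wild type (WT) or carried a double knockout of Ctbp1 and Ctbp2 (DKO), which encode transcriptional corepressors, and each genotype was taken at d0 and d2. The series title names overexpression of PRDM14, a transcription regulator active in germ cells and naive pluripotency, so d0 and d2 are read as days of it; which vector drove it, and how many knockout clones were used, the sources used here do not say. A d2 array without overexpression was not used here. Where 4 values follow a gene, they stand for WT at d0 and at d2, then DKO at d0 and at d2. Each group is 1 array, so differences between arrays carry no error, and their number limits how precise any value is. In such bulk RNA, fewer cells of a type and less RNA per cell cannot be told apart.

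A ribosome has a small subunit, which decodes the mRNA, and a large subunit, which joins the amino acids, and each ribosomal protein is normally needed in about equal number. Dividing cells such as embryonic stem cells make these proteins in large amounts. Many of their mRNAs start with a terminal oligopyrimidine tract, a C followed by further pyrimidines at the cap, through which mTOR and LARP1 control their translation.

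The start of the transcript is shown first, because it is a feature that the selection by name did not use. RefSeq start sites of GRCm38.p6 were matched by gene number for 52 of the 67 genes. A C followed by at least 4 pyrimidines, read on the sense strand from the first transcribed base, began a start site of 11 of these 52 genes (21.2%). The other 41 had none. Over all 27025 genes with a start site the share was 3.01%. The 7 given here, chosen to span both subunits and the stalk, run from 20 bases before the start to 10 bases into the transcript, and capitals mark the run of C and T that begins at the start.
Rpl15, chr14:18270977-18271006, minus strand: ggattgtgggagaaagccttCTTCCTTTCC
Rpl35, chr2:39005122-39005151, minus strand: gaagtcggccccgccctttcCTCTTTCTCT
Rpl38, chr11:114668560-114668589, plus strand: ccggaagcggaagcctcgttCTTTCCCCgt
Rplp2, chr7:141447631-141447660, plus strand: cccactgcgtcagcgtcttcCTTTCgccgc
Rps6, chr4:86857358-86857387, minus strand: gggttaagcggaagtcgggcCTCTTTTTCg
Rps18, chr17:33955656-33955685, minus strand: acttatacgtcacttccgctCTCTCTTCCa
Rps27, chr3:90213639-90213668, minus strand: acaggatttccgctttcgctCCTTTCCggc

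The genes with the widest differences between arrays, Rps15, Rpl13, Rps26, Rpl41 and Rpl34 among them, had no such run at their annotated start, as was the case for 41 of the 52 genes. Their windows are given so that both sets can be read side by side, with the longest run of C and T in capitals. A run of at least 8 within this window of 30 bases was present for 24 of the 52 genes (46.2%) and for 14.5% of all genes. An annotated start can lie some bases away from the true one, so a run upstream of it is a description of these letters only.
Rps15, chr10:80292411-80292440, plus strand: gCCCTCCCggcagagctcgcgataactgcg
Rpl13, chr8:123102330-123102359, plus strand: gtcaCTTCCCTTTCgcctgattttgattgg
Rps26, chr10:128626497-128626526, minus strand: agcgggtcgggcaagccgccggaTCCTCTT
Rpl41, chr10:128549159-128549188, minus strand: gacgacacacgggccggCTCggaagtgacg
Rpl34, first start, chr3:130730328-130730357, minus strand: ccgCCCCTTCCTTTTCCTCTTCCggggacg
Rpl34, second start, chr3:130730389-130730418, minus strand: cgcgccgCCTTCCCTgacgtacttcctgtc

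The deposited values are log2 values made with RMA, and a difference of 1 is called 2-fold on the assumption of that base, which the table does not state. The median over all genes lay between 0.37 and 0.42 on the 4 arrays, which is low for RMA. The medians of the ribosomal protein genes were 0.61, 0.57, 0.52 and 0.63. Taking the brightest probe set raises genes with several, which ribosomal protein genes more often have; with probe sets averaged their medians were 0.49, 0.53, 0.52 and 0.54, and those of all genes 0.37, 0.38, 0.38 and 0.42. A mean above 1 was reached by 18 of the 67 genes (26.9%) against 4.85% of all genes, or by 7 (10.4%) against 4.35% with probe sets averaged. On the brightest probe set, a mean above 2 was reached by 4 genes, Rpl13, Rpl41, Rpl4 and Rps15. In the other direction, 19 of the 67 had a mean below 0.30, as did 7319 of all 22180 genes. That level is the 40th percentile of all values and the filter for dim genes. The 19 include 3 paralogs, and for the others such values are low for transcripts that every cell makes. Brightness also depends on a probe set's probes, so 1 gene's value does not rank its abundance against another's.

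The labels could not be checked on these arrays. Of 16 embryonic stem cell markers, none was above 1 on either WT array and 1 was on each DKO array (Dppa5a at 1.23 on d0, Lin28a at 1.60 on d2), while the medians of the list lay between 0.48 and 0.59 and its summed values between 8.13 and 9.36. Nor were markers of other cells set apart: the medians of 9 fibroblast markers lay between 0.48 and 0.56, and those of 8 primitive endoderm markers between 0.35 and 0.65. The 7 of 8 markers of 2-cell-like cells on the array had medians of 0.26, 0.37, 0.71 and 0.74 and summed values of 3.66, 5.79, 7.14 and 6.54. The list's median was higher on the DKO arrays, and 5 of the 7 were higher in DKO on each day. Of all genes 51.3% were higher in DKO at d0 and 55.6% at d2. At d0 Tmem92 (0.05 in WT, 2.14 in DKO) and Tcstv3 (0.07 and 1.68) were past 2-fold higher, where 0.175% of all genes were. From d0 to d2 in DKO, Tmem92 differed by -1.49 and Tcstv3 by -1.68, while Zscan4c was higher by 1.03. Past 2-fold in that comparison were 0.365% of all genes lower and 0.62% higher. In WT, Usp17la was higher at d2 by 1.51, where 0.195% of all genes were past 2-fold higher. Usp17la was lower in DKO on both days (1.67, 3.18, 1.46 and 2.43), as were Tcstv1 at d0 and Tcstv3 at d2. Their part in the genotype differences was not tested. Prdm14 measured 0.34, 0.42, 0.24 and 0.68. Ctbp1 measured 0.63, 0.32, 0.56 and 0.42, and Ctbp2 0.55, 0.46, 0.55 and 0.42. Neither knocked-out gene set the genotypes apart by much, and the sources used here do not say which part was deleted, so WT, DKO, d0 and d2 stand for arrays labelled so. The DKO d2 array also stood apart: over the 67 genes its Pearson correlation with the others was 0.815 to 0.845, where the other pairs gave 0.913 to 0.926. Over all genes the values were 0.769 to 0.773 against 0.835 to 0.843, and genes are not independent replicates.

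**Figure D1:**
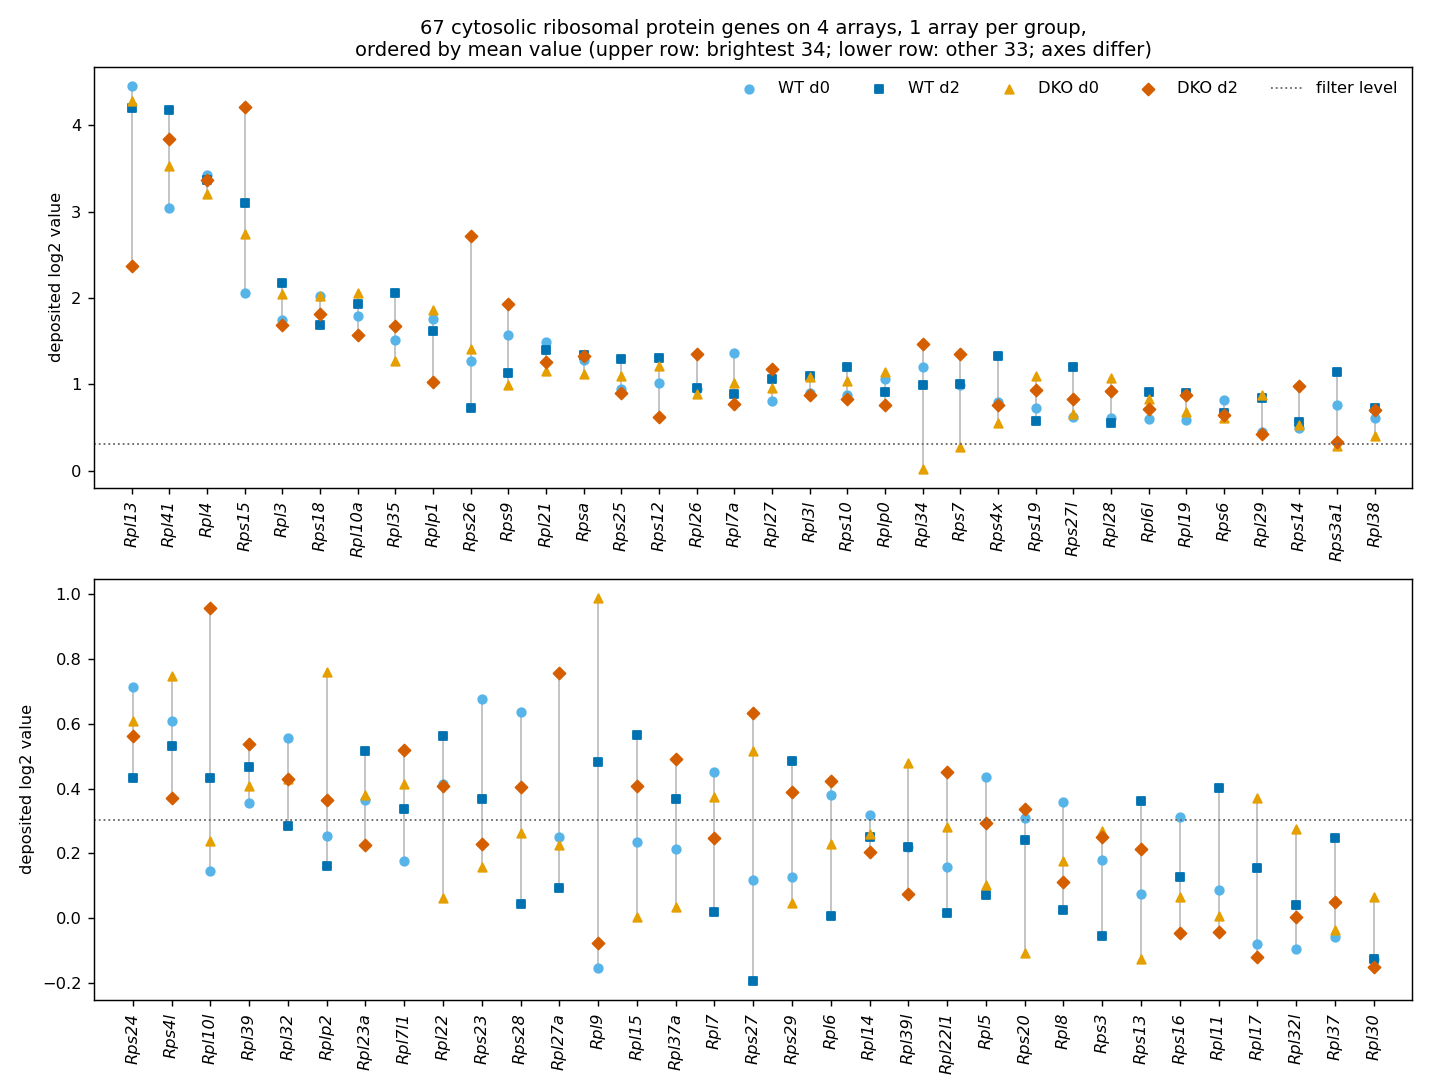
Deposited log2 value (vertical axis) of each of the 67 ribosomal protein genes on the 4 arrays, 1 point per array, with genes ordered by their mean and a grey line from lowest to highest. The dotted line is the filter level of 0.30; Rpl13 on DKO d2, at 2.37, and Rps26 on DKO d2, at 2.72, lie far from the other arrays of the same gene.

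Across the 4 arrays the median gap between a gene's highest and lowest value was 0.44 for ribosomal protein genes and 0.34 for all genes. A gap of at least 1 was present in 7 of the 67 (10.4%) and in 2.15% of all genes. Gaps were wider among bright genes in general: with a mean above 1, the median gap was 0.54 for 18 ribosomal protein genes and 0.52 for 1075 genes, and 22.2% of the former and 16.3% of the latter reached 1. The plot of levels by array shows these gaps gene by gene.

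Rpl4, Rpsa and Rps6 held nearly level values. Rpl4, a protein of the peptide exit tunnel, measured 3.43, 3.37, 3.21 and 3.37, a gap of 0.22. Rpsa, the small-subunit protein also known as a laminin receptor precursor, measured 1.28, 1.34, 1.12 and 1.33. Rps6, the small-subunit protein phosphorylated by S6 kinase, measured 0.81, 0.67, 0.61 and 0.64. DKO d0 was the lowest array in all 3 genes, whose values spanned at most 0.22. Rpl3, which lies near the peptidyl transferase centre, measured 1.75, 2.17, 2.05 and 1.69. Rps18 measured 2.02, 1.69, 2.02 and 1.82, and Rpl10a, the protein of the L1 stalk, 1.79, 1.93, 2.06 and 1.58. In Rpl3, Rps18 and Rpl10a the arrays differed by less than 0.50 and in no common order. The gaps of Rpl3 (0.49) and Rpl10a (0.49) were wider than the members' median of 0.44.

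At the dim end, Rps3, Rpl30, Rpl37 and Rpl32l stayed below the filter level on all 4 arrays and were left out of the counts, which leaves 63 ribosomal protein genes of 20015 genes. Rpl30 measured -0.13, -0.13, 0.07 and -0.15, Rpl37 -0.06, 0.25, -0.04 and 0.05, and Rps3, of the mRNA entry channel, 0.18, -0.06, 0.27 and 0.25. Rpl32l, a copy of Rpl32 by name, measured -0.10, 0.04, 0.28 and 0.00. Rpl17 had a mean of 0.08, just inside the filter because of its value of 0.37 on DKO d0. Rpl5 and Rpl11, which with 5S rRNA can bind and restrain Mdm2, were dim too, with means of 0.23 and 0.11.

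The first comparison, d2 against d0 in WT cells, asks what differed over the time read as PRDM14 overexpression. In it 2 of 63 ribosomal protein genes were past 2-fold, both higher (3.17%; 2.99% of all 67), where 0.355% of all genes were past 2-fold either way and 0.195% were higher and 0.16% lower. Among genes with a mean above 1 the shares were 11.1% of the 18 ribosomal protein genes and 3.07% of all. Rpl41, the smallest ribosomal protein, measured 3.04 at d0 and 4.18 at d2, a difference of 1.14. Rps15, a protein of the small-subunit head whose tail reaches toward the decoding centre, measured 2.06 and 3.11, a difference of 1.05. With the 5 probe sets of Rpl41 averaged, its difference was 0.29.

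The members had no common direction in WT, though they differed more in size than genes in general. With signs left aside their median difference was 0.27, against 0.16 for all genes. Among genes with a mean above 1 it was 0.31 for members and 0.23 for all genes. The 63 had a median difference of 0.02 against 0.01 for all genes, and 33 were above 0 (52.4%, against 51.3% of all genes). After Rpl41 and Rps15 came Rpl9 at 0.64, the paralog Rps27l at 0.57 and Rpl35, of the tunnel exit, at 0.54. On the lower side Rps28 differed by -0.59, Rps26 by -0.54 and Rpl7a by -0.48. The 30 large-subunit genes counted had a median of 0.11 and the 22 small-subunit genes -0.03.

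The same interval was compared in DKO cells. Here 6 of 63 members were past 2-fold, 4 higher and 2 lower (9.52%; 8.96% of all 67), where 0.984% of all genes were, 0.62% higher and 0.365% lower. With a mean above 1 the shares were 16.7% of 18 ribosomal protein genes and 7.16% of all genes. This comparison and that of the genotypes at d2 rest on the DKO d2 array, and there is no second array of that group to set in its place, so its part in these counts was not tested.

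Of the 4 higher genes 3 encode small-subunit proteins. Rps15 measured 2.75 on DKO d0 and 4.22 on DKO d2, a difference of 1.47, and it was the 1 member past 2-fold in both genotypes. Rps26, which lies at the mRNA exit channel, measured 1.40 and 2.72, a difference of 1.31. Rps7 measured 0.28 and 1.35, a difference of 1.08. Its WT values were 0.99 and 1.01, so the DKO d0 array was the low one of the 4. Rpl34 measured 0.02 and 1.47, a difference of 1.45, where the WT values of 1.20 and 1.0 again left DKO d0 as the array apart. Both DKO d0 values lay below the filter level, so the size of these differences is uncertain. Rps9, of the mRNA entry channel, was just short of 2-fold with 0.99 and 1.93, a difference of 0.94.

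Rpl13 and Rpl9 were the 2 lower genes. Rpl13 measured 4.46, 4.20, 4.28 and 2.37. Its DKO difference was -1.91, and the other 3 arrays lay within 0.26 of each other. Rpl9 measured -0.15, 0.48, 0.99 and -0.08, a DKO difference of -1.07 in which DKO d0 was the high array and DKO d2 lay below the filter level. With probe sets averaged, the DKO difference was -0.63 for Rpl13, -0.49 for Rpl9 and 0.76 for Rps26, each short of 2-fold. Rps15, Rps7 and Rpl34 have 1 probe set each.

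The 3 stalk proteins, acidic proteins that recruit elongation factors to the large subunit, all had lower values on DKO d2 than on DKO d0. Rplp1 measured 1.75, 1.61, 1.86 and 1.02, a DKO difference of -0.84. Rplp0, the base of the stalk, measured 1.06, 0.91, 1.14 and 0.76 (-0.38). Rplp2 measured 0.25, 0.16, 0.76 and 0.37 (-0.39). The WT differences lay between -0.14 and -0.09. None of the stalk genes was past 2-fold. The second probe sets disagreed in part: Rplp1's had differences of 0.05 in WT and 0.20 in DKO, and Rplp0's 0.22 and -0.04.

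**Figure D2:**
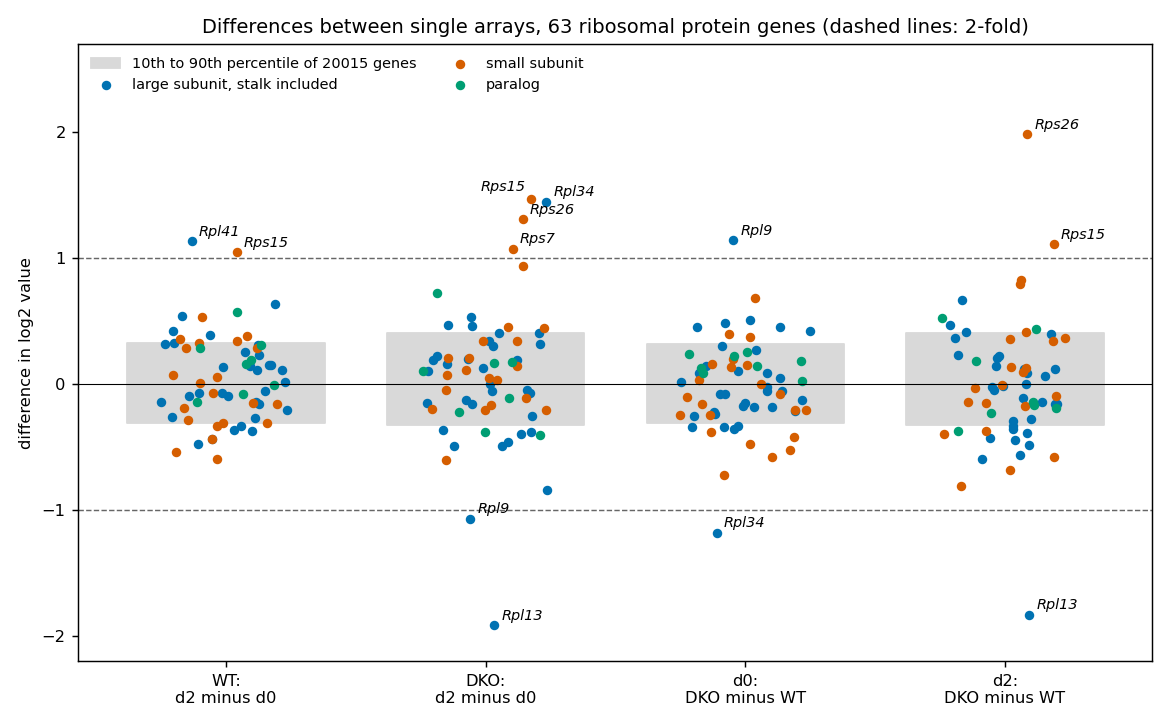
Difference in log2 value (vertical axis) between single arrays for 63 ribosomal protein genes in 4 comparisons, coloured by subunit; points are spread sideways for legibility, grey bands run from the 10th to the 90th percentile of 20015 genes, and dashed lines mark 2-fold. Most points lie in or near the bands, and 2, 6, 2 and 3 genes lie beyond 2-fold from left to right.

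At d0, DKO was set against WT before the interval. Rpl9 was higher in DKO by 1.14 and Rpl34 differed by -1.18, which made 2 of 63 past 2-fold (3.17%; 2.99% of all 67) where 0.355% of all genes were, 0.175% higher and 0.18% lower. With a mean above 1, it was 0 of 18 ribosomal protein genes against 2.98% of all genes. The DKO d0 values of Rpl9 and Rpl34 also enter the DKO d2 change, so the comparisons share an array and are not separate observations. With probe sets averaged, Rpl9 was higher by 0.43, short of 2-fold, which left 1 member past it. The second probe set of Rpl9 differed by -0.27. On the probe sets used, Rpl9 on WT d0 (-0.15) and Rpl34 on DKO d0 (0.02) lay below the filter level. The size of both differences is therefore uncertain. Rps7 differed by -0.72, Rps9 by -0.58 and Rps23 by -0.52, while Rps15 was higher by 0.69 and Rplp2 by 0.51. All 8 counted paralogs were above 0 at d0, by 0.03 to 0.26 with a median of 0.16, and 3 of the 8 were at d2. Of all genes 51.3% were above 0 at d0 and 55.6% at d2. At d0 the 30 large-subunit genes had a median of -0.08 with 11 above 0, the 22 small-subunit genes -0.13 with 9 above 0, and all genes 0.01.

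At d2, 3 of 63 members were past 2-fold between genotypes (4.76%; 4.48% of all 67) where 0.964% of all genes were, 0.55% higher and 0.415% lower. With a mean above 1 the shares were 16.7% of 18 ribosomal protein genes and 7.07% of all genes. Rps26 was higher in DKO by 1.99, from 0.73 to 2.72, and Rps15 by 1.11, from 3.11 to 4.22. Rpl13 differed by -1.83, from 4.20 to 2.37, and by -0.71 with its probe sets averaged. Short of 2-fold, Rps27 was higher by 0.83, Rps9 by 0.80 and Rpl27a by 0.66, and Rps3a1 differed by -0.81, Rps12 by -0.68 and Rplp1 by -0.59. The median over the 63 was -0.03 with 27 above 0, where all genes had 0.04 and 55.6% above 0.

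How far the change to d2 differed between the genotypes was read from the DKO change less that of WT. By this measure 6 of 63 members were past 2-fold, 4 higher and 2 lower (9.52%; 8.96% of all 67), against 2.45% of all genes, 1.35% higher and 1.1% lower. Rps26 (1.85), Rpl34 (1.65), Rps9 (1.38) and Rps7 (1.06) lay on the side of a higher DKO change, and Rpl9 (-1.70) and Rpl13 (-1.65) on the other. With probe sets averaged 3 were past 2-fold, all higher: Rpl9 was then at -0.71, Rpl13 at -0.48 and Rps9 at 0.91. With a mean above 1 the shares were 16.7% of 18 ribosomal protein genes and 12.2% of all genes. Rps15, which was higher at d2 in both genotypes, had 0.43. Of the 67 genes, 22 were higher at d2 in both genotypes, 17 were lower in both and 28 had opposite signs. The shares of these patterns over all genes were not counted, so they are not read as a trait of the members. Across genes, the d2 changes of the 67 in WT and in DKO, which share no array, had a Pearson r of 0.055 and a Spearman rho of 0.038, where all genes gave 0.030 and 0.024. At the lower threshold of 1.5-fold, 4 of 63 members were past it in WT (3.39% of all genes), 10 in DKO (6.13%), 4 at d0 (3.38%), 9 at d2 (6.15%) and 15 in the difference of changes (13.3%).

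**Figure D3:**
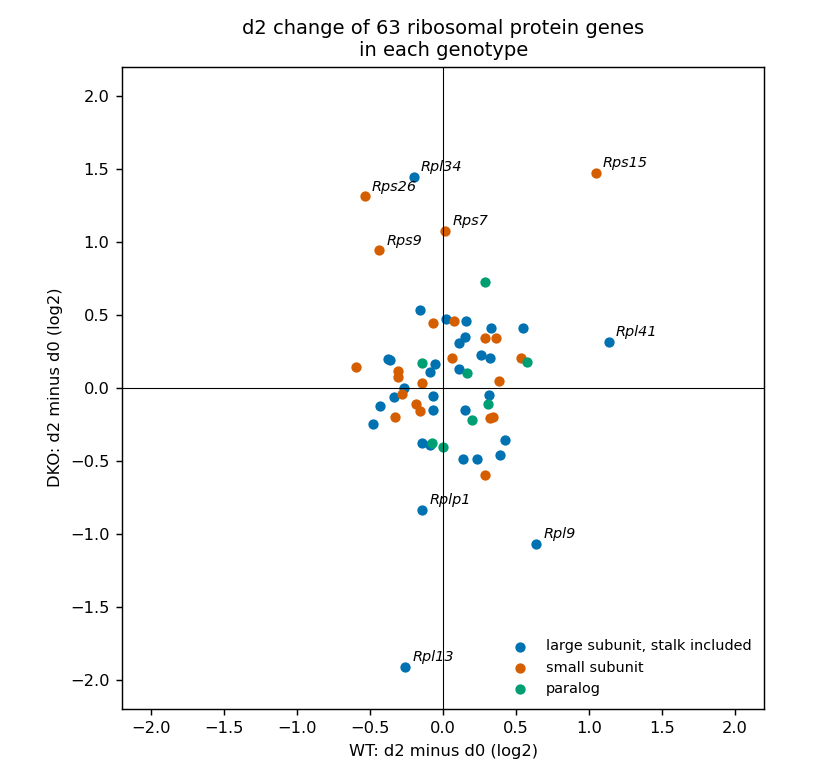
The d2 change in DKO cells (vertical axis, log2) against that in WT cells (horizontal axis, log2) for 63 ribosomal protein genes, coloured by subunit. Rps15 lies high on both axes at 1.05 and 1.47, Rpl41 lies high on the WT axis at 1.14, and Rpl13 lies low on the DKO axis at -1.91.

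The part of the d2 change that both genotypes share was tested in limma by an additive model over all 20015 genes. It leaves 1 residual degree of freedom, whose error is how far the d2 change differed between the genotypes. The SE values of both limma contrasts rest on that error, moderated across genes, and not on a spread of replicates. At an adjusted p of 0.05 there was no call, among the 63 members or over all genes (0%), and the lowest adjusted p of limma was 0.923. At an unadjusted limma p under 0.05 there were 4 of the 63 members (6.35%) and 5.15% of all genes. Rps15 had the lowest, with a shared change of 1.26 ± 0.40 (SE) and an adjusted p of 0.923. Rpl10l (0.50 ± 0.17 SE), Rpl15 (0.37 ± 0.15 SE) and Rps29 (0.35 ± 0.15 SE) followed, then Rpl13 (-1.09 ± 0.51 SE) and Rps7 (0.54 ± 0.27 SE), whose unadjusted limma p was above 0.05. The median estimate was 0.03 for the members and 0.02 for all genes.

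The genotype difference shared by both days gave no call in limma either. The lowest adjusted p was 0.943 over all genes and members alike (0% called), and 4 of 63 members had an unadjusted limma p under 0.05 (6.35%, against 4.92% of all genes). Rps27, a zinc-finger protein of the small subunit, measured 0.12 and -0.19 in WT and 0.52 and 0.63 in DKO, so the genotypes did not overlap. Both WT values lay below the filter level, and it entered the test through its DKO values. Its estimate was 0.61 ± 0.17 (SE). Rps3a1, of the small-subunit platform, measured 0.76 and 1.14 in WT and 0.28 and 0.33 in DKO, with an estimate of -0.64 ± 0.18 (SE). Here too the genotypes did not overlap, but those of its second probe set did (0.56 and 0.06 in WT, 0.54 and -0.31 in DKO). Genotypes did not overlap in 16 of the 63 members (25.4%) and in 33.3% of all genes. Rps26 (1.06 ± 0.42 SE) and Rplp2 (0.36 ± 0.15 SE) were the others, and Rpl28 (0.41 ± 0.18 SE) and Rps15 (0.90 ± 0.40 SE) came next, with an unadjusted limma p above 0.05. The median SE over the members was 0.19.

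Of the members, 25 have several probe sets, 66 in all, and in 3 of these genes some probe sets hold identical values on every array. In 24 genes the probe sets differ, with a median gap of 0.82 between their means. The widest gaps were those of Rpl41 (means from 0.11 to 3.65), Rpl13 (1.25 to 3.83), Rpl4 (1.48 to 3.35), Rpl3 (0.19 to 1.91), Rps18 (0.42 to 1.89), Rps26 (0.06 to 1.53), Rpl35 (0.28 to 1.63) and Rplp1 (0.38 to 1.56). The probe sets of 1 gene also disagreed in direction, in 12 of 24 genes for the WT d2 change and in 11 of 24 for the DKO d2 change.

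Rpl13 showed this disagreement most widely. Its second probe set measured 1.24, 1.21, 0.95 and 1.61, so the DKO d2 difference was 0.66 there and -1.91 on the brighter probe set. Rpl9's second probe set measured 0.38, 0.18, 0.11 and 0.19, a difference of 0.08 against -1.07. In Rps26 and Rps9 both probe sets had the same sign, with 1.31 and 0.20 for Rps26 and 0.94 and 0.35 for Rps9. In Rpl41 the second brightest probe set had a WT difference of 0.73 beside the 1.14 of the brightest, and the third -0.74. Ribosomal protein genes have many near-identical processed copies, and the sources used here do not say which of them each probe set also reads.

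**Figure D4:**
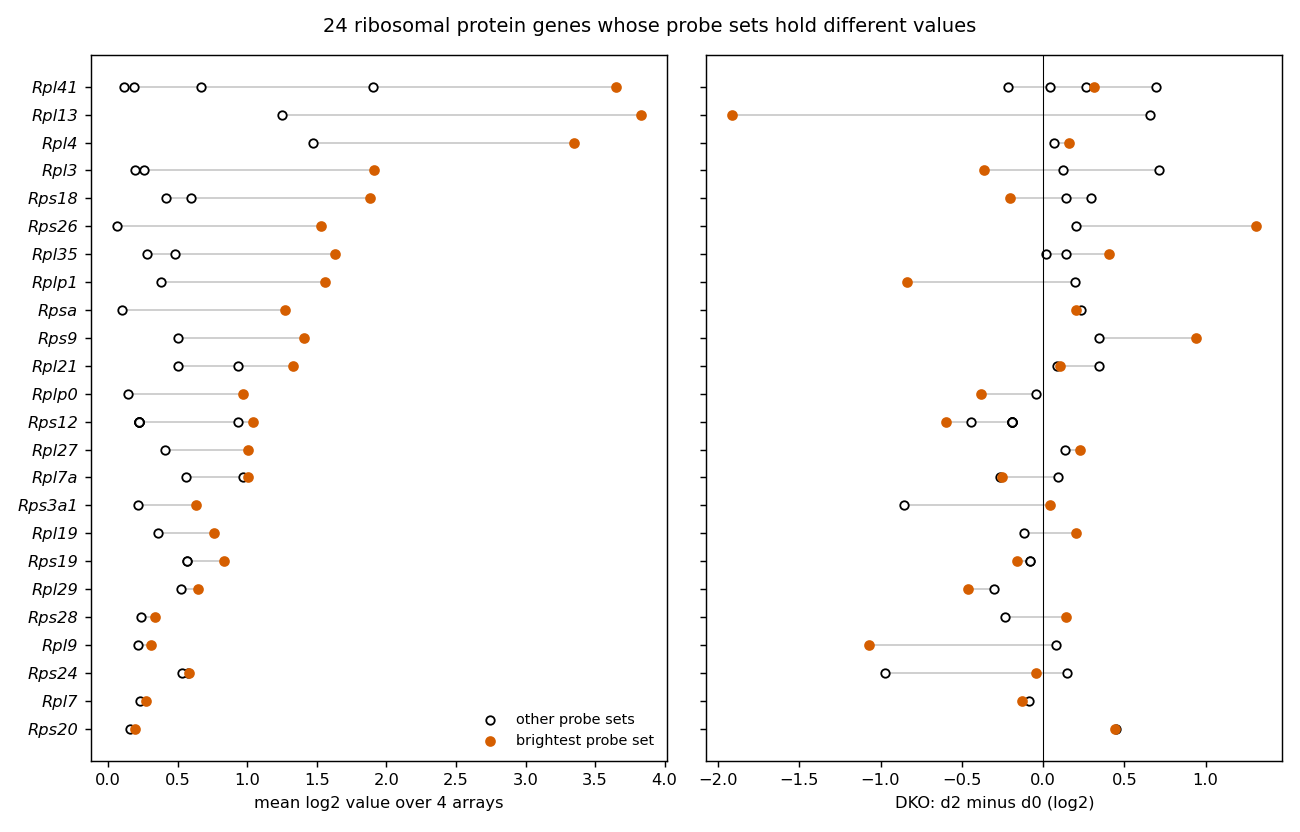
Mean log2 value over the 4 arrays (left) and DKO d2 minus d0 difference in log2 value (right) of every probe set of 24 ribosomal protein genes, with the probe set used for each gene filled. The probe sets of Rpl13 lie at -1.91 and 0.66 on the right, on opposite sides of 0.

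Of the 9 paralogs, 8 passed the filter, and of their parents only Rpl10 was not among the counted members. None of the paralogs was past 2-fold in any of the 4 comparisons of arrays, where 0.355% to 0.984% of all genes were. Rpl10l, a testis paralog of Rpl10, measured 0.15, 0.43, 0.24 and 0.96, highest on DKO d2. Rps27l, a p53-responsive paralog, measured 0.63, 1.20, 0.65 and 0.83, highest on WT d2, where its parent Rps27 was lowest. Rpl3l, known from heart and skeletal muscle, measured 0.90, 1.10, 1.09 and 0.87. Like its parent Rpl3, it was higher on WT d2 and DKO d0 than on WT d0 and DKO d2. Rpl39l, known from testis, measured 0.22, 0.22, 0.48 and 0.07 beside 0.36, 0.47, 0.41 and 0.54 for Rpl39. Rpl22l1, whose mRNA is restrained by the Rpl22 protein, measured 0.16, 0.01, 0.28 and 0.45 beside 0.41, 0.56, 0.06 and 0.41 for Rpl22, the values of both staying below 0.60. Rpl7l1 measured 0.18, 0.34, 0.42 and 0.52 and Rpl7 0.45, 0.02, 0.37 and 0.25. Rps4l, a transcribed pseudogene in RefSeq, measured 0.61, 0.53, 0.75 and 0.37, and Rps4x 0.79, 1.33, 0.55 and 0.76. Rpl6l, a pseudogene in RefSeq that the symbol rule keeps, measured 0.60, 0.91, 0.82 and 0.71.

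Of the 11 genes that start with a pyrimidine run, read without the filter, none was past 2-fold in any of the 5 comparisons. Of the 41 others 2, 6, 2, 3 and 6 were, in the order WT, DKO, d0, d2 and difference of changes. Of all genes, also read without the filter, 0.32%, 0.888%, 0.32%, 0.87% and 2.21% were. With 11 genes this difference in counts was not tested. Their median differences were -0.07 in WT, -0.06 in DKO, 0.00 between genotypes at d0 and -0.03 at d2. The 41 genes without such a start had medians of 0.06, 0.16, -0.03 and -0.01.

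The other genes of translation and ribosome assembly were read from 9 lists. In the 4 comparisons of arrays 0.355% to 0.984% of all genes were past 2-fold, so a count of 0 in a short list says little. Of 28 translation initiation factors, Eif4a2, a helicase of the cap-binding complex, was the 1 past 2-fold between arrays, with 7.13, 6.74, 7.13 and 3.04. Like Rpl13 it was low on DKO d2 alone, at a DKO difference of -4.10, or -1.30 with its probe sets averaged. Eif2s2, a subunit of the factor that brings initiator tRNA, measured 0.32, 0.62, 1.10 and 0.31. None of 9 elongation and release factors was past 2-fold; Eef2, which moves the ribosome along the mRNA, measured 0.55, 0.38, 0.37 and 0.97 and Eef1a1 0.36, 0.53, 0.42 and 0.98. Both were highest on DKO d2.

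Of 43 ribosome biogenesis factors none was past 2-fold between arrays, where 0.355% to 0.984% of all genes were. Ncl (nucleolin) measured 1.31, 0.61, 0.55 and 1.30, so that its change differed between genotypes by 1.44, and Rrs1, a factor of 5S particle assembly, measured 0.76, 1.02, 0.18 and 1.15. The median of the list was -0.02 for the WT change and 0.03 for the DKO change. None of 24 genes of the RNA polymerase I and III machinery was past 2-fold, with Taf1d at 0.72, 0.81, 1.37 and 1.02. Of 15 other transcripts known for a terminal oligopyrimidine tract none was either, with Vim at 0.78, 1.05, 1.63 and 1.30, and Fau, the ribosomal protein gene outside the symbol rule that could be counted, measured 0.60, 0.74, 0.56 and 0.92.

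Among 15 regulators of the mTOR, MYC and LARP1 group, 13 were above 0 in the DKO change, where 55.4% of all genes were. Some of the 13 were close to 0, such as Rps6kb2 at 0.02 and Max at 0.04. The median of the list was 0.13 against 0.04 for all genes. In the WT change 8 were above 0, where 51.3% of all genes were. Rptor, the scaffold of mTOR complex 1, measured 0.40, 0.11, 0.45 and 0.89, and Tsc1, an inhibitor of the complex, 0.34, 0.04, 0.34 and 0.81. Both were highest on DKO d2, and none of the list was past 2-fold. Of 12 genes of the p53 response, Pmaip1, a proapoptotic BH3-only gene, measured 0.13, 0.70, 0.22 and 1.92. It was past 2-fold in DKO (1.70) and between genotypes at d2 (1.22), where 0.984% and 0.964% of all genes were. Cdkn1a, the cell-cycle inhibitor p21, measured 0.50, 0.58, 0.17 and 0.90. Of the 12 genes, 8 were above 0 in the DKO change (median 0.12) and 5 between genotypes at d2 (median -0.02). Of all genes 55.4% and 55.6% were. The 65 mitochondrial ribosomal protein genes counted, which build the separate ribosome of mitochondria, had median differences of 0.02 in WT and -0.05 in DKO. Of these Mrpl23 (0.59, -0.15, 0.35 and 1.22) and Mrpl24 (0.45, 0.02, 0.59 and 1.14) were past 2-fold between genotypes at d2, by 1.37 and 1.12, where 0.964% of all genes were.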

How the data were processed

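The authors deposited 1 table of log2 values for the 4 arrays. It was processed with RMA, of a version not stated, as the submitters' processing notes give it; the log base is assumed. All 4 arrays were on strip 2 per the labels. Symbols came from the platform annotation, and 23328 of 23521 probe sets with 1 symbol matched the RefSeq gene table by Entrez number. No further normalization was applied. A gene entered the counts if its highest value reached the 40th percentile of all values. limma 3.58.1 in R 4.3.3 fitted genotype and day as additive terms (eBayes with trend and 7.21 prior degrees of freedom), with p adjusted by Benjamini-Hochberg over 20015 genes. Other differences are between single arrays and carry no test. Alternatives were other normalizations, filters, thresholds and the mean of probe sets. The members and gene lists were chosen with earlier results of these data known. Named were members past 2-fold, the 10 brightest and 5 dimmest, those with several probe sets, paralogs, stalk genes, the 6 lowest limma p per contrast and up to 4 genes per list. Rpl6l, Rpl32l and the members named as short of 2-fold, level or dim were added after their values were seen. Python 3.11.15, pandas 2.3.3, numpy 2.4.6 and matplotlib 3.10.9 were used.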

Additional observations from a re-analysis of the deposited data

Results flagged for a closer look

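In 4 ribosomal protein genes the d2 change had opposite signs in WT and DKO cells and differed between them by at least 1. Of all genes 2.45% differed by at least 1 with signs left aside, and the share that also had opposite signs was not counted. The DKO change minus the WT change was 1.85 for Rps26, 1.65 for Rpl34, 1.38 for Rps9 and -1.70 for Rpl9. These are values of the brightest probe set. With probe sets averaged they were 1.04 for Rps26, 0.91 for Rps9 and -0.71 for Rpl9, whose second probe set gave 0.28, the other direction. Rpl34 has 1 probe set. With 1 array per group this difference was not tested.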

How the results depend on the processing

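Quantile normalization, cyclic loess and equal array medians each gave as many members past 2-fold in all 5 comparisons as the deposited values. So did dropping the filter and raising it to the 60th percentile (52 ribosomal protein genes counted). For the 4 comparisons of arrays the filters could not change these counts. The members they leave out lay below 0.46 on every array, and the lowest value of any member was -0.19. Averaging probe sets gave 1 in WT, 3 in DKO, 1 at d0 and 3 for the difference of changes; at d2 it gave 2 against 3. At 1.5-fold there were 4, 10, 4, 9 and 15, in the order WT, DKO, d0, d2 and difference of changes. The median over members moved by less than 0.1 under every alternative run. That bound is wide, since the medians themselves lay between -0.03 and 0.10. With quantile normalization the DKO median was 0.03 against 0.10. Without the filter the d0 median was 0.01 against -0.03. At the 60th percentile the median difference of changes was -0.01 against 0.05. limma called 0 members in both contrasts under every alternative run, among them robust moderation, no trend in eBayes and a threshold of 0.1. A mean above 0.5 was reached by 36 genes and a mean above 2 by 4. A start of C with at least 2 pyrimidines was found in 12 genes and with at least 6 in 9. No paired analysis was possible because each group holds 1 array and the labels give no replicate numbers to pair; the additive limma fit sets the days against each other within each genotype. The table holds no background, so low values bound no level.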
